A study of Homo sapiens with 8 samples.

Results

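The response described here is the effect of the small molecule P2 that is shared by 2 genotypes of the human colon cancer cell line HCT116, estimated as 1 P2 effect over all 4 P2-treated arrays against all 4 untreated arrays, with the genotype held as a block. All 8 arrays of the series enter it. Each array measured 24526 probes, and the 14574 of them that 2 or more of the 8 arrays detected (detection p under 0.05) were tested. They stand for 10932 genes, and the remaining 9952 probes were left out as too dim. The groups were p53-/- cells treated with 25 µM P2 (n = 2), p53+/+ cells treated with 25 µM P2 (n = 2), p53-/- cells left untreated (n = 2) and p53+/+ cells left untreated (n = 2). P2 is known here only by its code. The dose comes from the design text of the series, and the labels give no treatment time, no solvent control and no statement that replicates came from separate cultures, so p-values measure the spread between these samples, which may be technical.

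HCT116 is an epithelial line from a colorectal carcinoma with intact p53, and the p53-/- line is a derivative in which the gene was disrupted. Whether that line is 1 clone is not given. The targeted gene is not analysed here. The tumour suppressor p53 is a transcription factor that is stabilised by many kinds of stress and then raises genes of cell cycle arrest, DNA repair and cell death. CDKN1A, which encodes the cell cycle inhibitor p21, and MDM2, which encodes the ligase that degrades p53, are among its best known targets. A treatment effect estimated over both genotypes asks which genes moved with P2 in cells with p53 and in cells without it.

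Between 12775 and 13998 probes were detected per array (detection p under 0.05), with median raw intensities between 52.2 and 69.1. The first principal component of the tested probes put the P2 arrays at 18.5 to 26.5 and the untreated arrays at -45.1 to -8.32, so treatment separated all arrays along it. The lowest of these scores belonged to untreated p53-/- replicate 1, which also had the fewest detected probes. On that array 215 probes were at least 1 log2 unit below untreated p53-/- replicate 2, and no probe was that far above it. The HCT116 label was checked against markers. Of 9 colon epithelial markers, 7 were detected on all 8 arrays, and villin (VIL1) was detected on none. In contrast, 2 of 10 fibroblast, 2 of 10 leukocyte, 1 of 7 endothelial and 2 of 5 erythroid markers on the array were detected on every array. Fewer cells of a type and less RNA per cell cannot be told apart in such bulk samples.

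P2 changed a broad part of the transcriptome. In the limma fit, 3815 of 14574 probes (26.2%) passed an adjusted p of 0.05, 1697 of them higher (11.6%) and 2118 lower (14.5%) with P2. The higher calls covered 1362 genes and the lower calls 1805 genes. Most changes were small. The median size of a called change was 0.46 on the log2 scale, with a median standard error over all tested probes of 0.10, and only 207 called probes rose and 98 fell by more than 2-fold. Leaving out P2-treated p53-/- replicate 2 lowered the higher calls to 1083. Which direction had more calls depended on the normalization. The share of calls that were higher was 44.5% with quantile normalization, 30.1% with median scaling and 51.9% with cyclic loess, where 1884 probes were called higher and 1744 lower. The median change of all probes was -0.02 with quantile normalization, -0.11 with median scaling and 0.02 with cyclic loess.

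The rule that pooled the genotypes did not name agreement as a condition, but the additive fit counts a difference between genotypes as residual spread. Calls therefore favoured probes that moved alike, and opposite effects could hardly be called. No called probe had genotype effects of opposite sign. Both P2 arrays lay above both untreated arrays in each genotype for 1524 of the 1697 higher probes (89.8%), and below them for 2046 of the 2118 lower probes (96.6%). Over all tested probes the same holds for 14.7% upward and 20% downward. The evenness of an effect, the smaller genotype effect divided by the larger, had a median of 0.64 among higher and 0.71 among lower probes. It was at least 0.5 for 1123 higher probes (66.2%) and 1704 lower probes (80.5%), and these are called even below.

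Taken one genotype at a time, 1137 of the 3815 probes were called in both genotypes, 1442 only in p53-/- cells, 384 only in p53+/+ cells and 852 in neither, so the pooled fit called 343 higher and 509 lower probes that no single genotype's contrast called. A call in one genotype alone is not a difference between them. limma's test of the difference in P2 effect called 0 of 14574 probes at an adjusted p of 0.05. Its smallest adjusted p was 0.0739, and 2383 probes had an unadjusted p under 0.05. Other settings called between 0 and 973 probes for this difference, 973 of them without untreated p53-/- replicate 2. Probes with an unadjusted p under 0.05 for the difference made up 15.3% of the probes called for the shared effect and 16.4% of all tested probes.

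**Figure D1:**
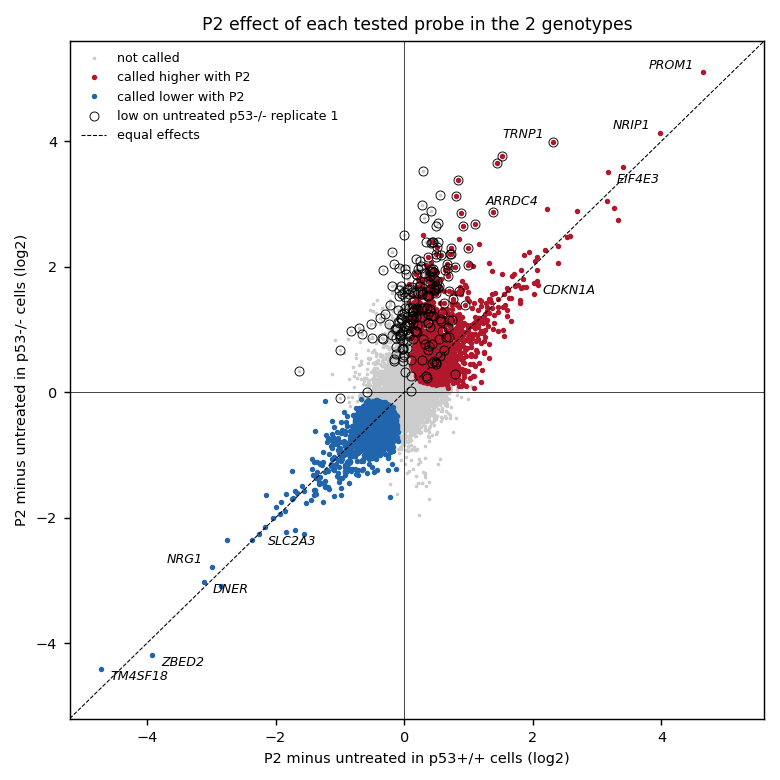
P2 effect of each tested probe (log2 intensity, P2 minus untreated) in p53-/- cells on the vertical axis and in p53+/+ cells on the horizontal axis. Called probes lie where both effects have the same sign, with no exception, which the fit favours by counting a genotype difference as residual spread. The 215 probes that were low on untreated p53-/- replicate 1 (open circles) lie mostly above the line of equal effects.

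The largest even rise was that of PROM1 on chromosome 4, which encodes prominin 1 (CD133), a membrane glycoprotein used as a marker of stem and progenitor cells. Its log2 intensity was 9.58 and 9.58 in P2-treated p53-/- cells and 9.25 and 9.16 in P2-treated p53+/+ cells, against 4.47 and 4.49 in untreated p53-/- cells and 4.55 and 4.56 in untreated p53+/+ cells. It was detected on all P2 arrays and on no untreated array, so that only a bound can be given: PROM1 was at least 23.8-fold higher with P2 (fitted change 4.87 ± 0.10 log2, standard error, adjusted p = 1.02e-08). Such bounds compare the P2 mean with the lowest signal that counted as detected on the dim arrays. NRIP1, the nuclear receptor corepressor RIP140, read 9.16, 9.10, 8.89 and 8.89 on the P2 arrays (p53-/- first, then p53+/+) against 4.81, 5.19, 4.90 and 4.94 on the untreated arrays in the same order. That is a 16.6-fold rise (adjusted p = 1.60e-08), and the effect in p53+/+ cells minus that in p53-/- cells was -0.17 (95% interval -0.59 to 0.26). For both genes the lowest P2 array was more than 3 log2 units above the highest untreated array.

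EIF4E3, a member of the family of proteins that bind the messenger RNA cap, rose 10.1-fold, with 8.52, 8.56, 8.21 and 8.26 on the P2 arrays against 5.25, 4.82, 5.26 and 4.88 on the untreated arrays. LCN2 encodes lipocalin 2, a secreted protein that binds bacterial iron carriers. It read 7.74, 7.76, 7.81 and 7.74 on the P2 arrays and 4.66, 4.75, 4.61 and 4.63 on the untreated arrays, where it was not detected, and was at least 7.69-fold higher with P2. CASP4, the caspase that senses bacterial lipopolysaccharide inside cells, rose 8.56-fold on its most changed probe (adjusted p = 1.60e-07), with 8.42, 8.53, 8.41 and 8.59 against 5.67, 5.42, 5.16 and 5.31, while its other tested probe changed by 0.76. EHF, an ETS transcription factor of epithelial cells, rose 8.20-fold, with 8.55, 8.90, 8.98 and 8.78 on the P2 arrays and 5.99, 5.97, 5.79 and 5.33 on the untreated arrays. None of these genes overlapped between treated and untreated arrays, as their choice required. Over all tested probes, 25.6% did not overlap, either way.

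The next rises ran from the actin-nucleating formin DIAPH2 (at least 5.40-fold, not detected on untreated arrays) to ENC1, a kelch protein that binds actin (4.25-fold). Between them were ARRDC4, an alpha-arrestin related to the glucose sensor TXNIP (5.95-fold, detected on 2 of 4 untreated arrays), GDF15, a stress cytokine of the TGF-beta superfamily (5.80-fold), and DPYSL3, a collapsin response mediator of growth cones (5.65-fold). The calcium-binding protein gene S100A4 rose 5.14-fold, and its other tested probe moved by 2.11 log2. The glutamate transporter gene SLC1A3 (4.67-fold) and the kinase gene ARAF of the RAF family (4.66-fold) completed the set. TRNP1, which encodes a nuclear protein known from cortical development in mice, also belongs among the 15, but unlike the others it was low on untreated p53-/- replicate 1: its untreated arrays read 5.55, 6.91, 8.15 and 8.21, and its P2 arrays 10.29, 10.14, 10.64 and 10.36. Its change of 3.15 therefore came with a standard error of 0.36, the largest of the 30 genes.

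TM4SF18, a four-transmembrane protein of the L6 family, had the largest fall. It read 4.73, 4.89, 4.73 and 4.74 on the P2 arrays against 9.19, 9.24, 9.36 and 9.54 on the untreated arrays, a 23.6-fold fall (change -4.56 ± 0.09, adjusted p = 1.02e-08), and 2 of the 4 P2 arrays still detected it. ZBED2, a zinc finger transcription factor, fell 16.6-fold, with 5.42, 5.24, 5.39 and 5.42 against 9.59, 9.45, 9.30 and 9.35. The arrays of a treatment lay close together in both genes, and the genotype effects were -4.41 in p53-/- and -4.71 in p53+/+ cells for TM4SF18 and -4.19 in p53-/- and -3.92 in p53+/+ cells for ZBED2.

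DNER, a transmembrane Notch ligand of neurons, read 5.64, 5.41, 5.16 and 5.02 with P2 against 8.65, 8.45, 8.26 and 8.14 untreated (8.40-fold lower). NRG1, the neuregulin ligand of ERBB3 and ERBB4, read 5.20, 5.50, 5.25 and 5.11 against 8.07, 8.20, 7.99 and 8.35 (7.40-fold lower). FGF9, a fibroblast growth factor, read 5.66, 5.25, 5.39 and 5.21 against 7.74, 7.88, 8.26 and 7.87 (5.88-fold lower). All 3 ligands read 5.02 to 5.66 on the P2 arrays, all of which detected them, against lowest detected signals of 4.73 to 4.81. The sides did not overlap, as their choice required. WNT3A fell 4.09-fold (3 of 4 P2 arrays detected it), BMP4, a bone morphogenetic protein, fell 3.76-fold, and WNT16 fell 3.76-fold on 1 probe while its other tested probe changed by only -0.02. The second BMP4 probe moved by -0.65.

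The glucose transporter gene SLC2A3 (GLUT3) fell 4.78-fold, with 6.65, 6.63, 6.66 and 6.74 on the P2 arrays and 8.90, 8.90, 8.89 and 9.01 on the untreated arrays. SGK1, a serum- and glucocorticoid-induced kinase, fell 4.07-fold, and TIPARP, an ADP-ribosyltransferase induced by the aryl hydrocarbon receptor, fell 3.82-fold, with changes of -1.93 in p53-/- cells and -1.93 in p53+/+ cells. NAV3, a neuron navigator protein of microtubule ends, fell 3.85-fold, and the adhesion molecule gene NECTIN3 fell 3.72-fold. The zinc finger gene GLIS3 and GZMB, which encodes the serine protease granzyme B, were not detected on any P2 array. GZMB was at least 2.96-fold lower with P2, and GLIS3 averaged 4.60 ± 0.12 on the P2 arrays and 6.75 ± 0.11 on the untreated arrays (SD, n = 4 each).

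**Figure D2:**
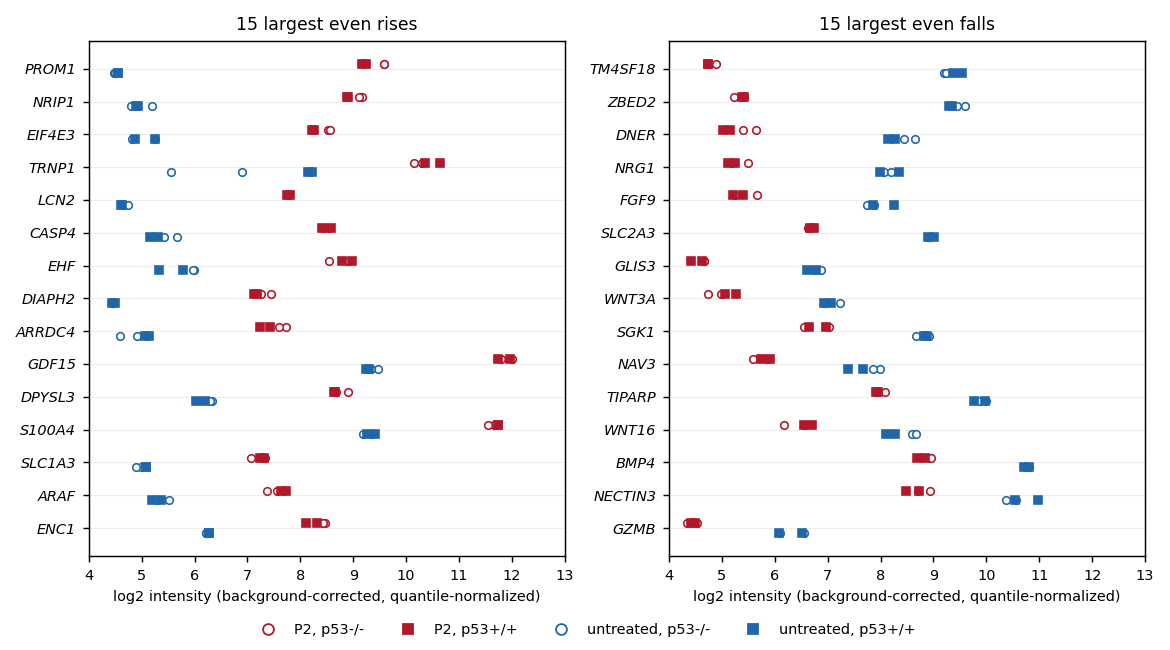
Log2 intensity of the 15 largest even rises (left) and the 15 largest even falls (right) on each of the 8 arrays, P2 arrays in red above untreated arrays in blue, p53-/- as open circles and p53+/+ as filled squares. The sides do not overlap for any of the 30 genes, as the choice of genes requires, and TRNP1 alone has untreated p53-/- arrays (5.55 and 6.91) well below the untreated p53+/+ arrays (8.15 and 8.21).

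Some genes were seen on one side only. Detected on all 4 P2 arrays and no untreated array were 68 probes of 61 genes, and 62 of these probes were called higher. Besides PROM1, LCN2 and DIAPH2, the largest were SYK, a tyrosine kinase of immune receptor signalling (at least 3.69-fold), PXDN, the peroxidase peroxidasin of the matrix (at least 3.26-fold), and PELI2, a ubiquitin ligase of the pellino family (at least 3.15-fold). The reverse pattern held for 29 probes of 26 genes, all 29 called lower. It was led by GLIS3, GZMB and DACT1, an inhibitor of Wnt signalling that was at least 2.72-fold lower on one probe and fell by 1.65 log2 on its other. The synaptic gene SNAP25 (at least 2.41-fold, with its other probe at -0.34 log2), the secreted protein gene MIA (at least 2.21-fold) and the vascular ligand gene ANGPT2 (at least 2.30-fold) followed.

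Among called changes over 2-fold, those that failed the evenness condition were nearly all rises. Of the 72 uneven rises over 2-fold, 41 were on the 215 probes low on untreated p53-/- replicate 1, and only 1 uneven fall exceeded 2-fold. The largest uneven rises were the decoy receptor gene TNFRSF6B (2.64), the phosphatase gene CDC14B (2.54), the metalloprotease gene ADAM15 (2.13), the tetraspanin gene CD151 (2.11) and the ERK phosphatase gene DUSP4 (1.96), and all 5 belonged to the 215. TNFRSF6B, for example, read 9.66, 9.06, 9.52 and 9.25 on the P2 arrays against 4.46, 6.74, 7.90 and 7.83 on the untreated arrays. Over the 215 probes the median change was 1.33 in p53-/- cells and 0.24 in p53+/+ cells, and 61 of them were called higher and 0 lower. Other tested probes of these genes moved less, by 0.15 to 0.40 for CD151 and 1.12 to 1.89 for ADAM15, or the other way for CDC14B (-0.46 to -0.34). TNFRSF6B, CDC14B, CD151 and DUSP4 were detected on 3 of 4 untreated arrays on the named probe. What set these probes apart on that array was not tested. Without that array the changes were 2.71 for TRNP1, 1.94 for TNFRSF6B, 1.93 for CDC14B, 1.33 for CD151 and 1.32 for DUSP4. The calls of CD151 and DUSP4 were lost without either P2-treated p53-/- array (adjusted p = 0.0919 for CD151 and 0.0739 for DUSP4 without replicate 2) and without P2-treated p53+/+ replicate 1 (adjusted p = 0.0501 for CD151 and 0.0516 for DUSP4).

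Uneven falls were smaller. MSX2, a homeobox gene downstream of BMP signalling, fell by 1.01 (p53-/- -0.62, p53+/+ -1.39), and TTI1, a partner of the PI3K-like kinases, fell by 0.93 (p53-/- -1.28, p53+/+ -0.58). The ETS factor gene ELK3 fell by 0.87 and BAIAP2, an adaptor of actin remodelling, by 0.85, although the 3 other probes of BAIAP2 ranged between -0.10 and 0.47. As for all 14574 tested probes, limma's difference between genotypes did not pass the threshold for these, which does not show equal effects. PPID, a cyclophilin, read 5.99, 6.15, 6.29 and 7.14 with P2 against 7.65, 7.83, 6.97 and 6.91 untreated, so that its sides overlapped, and its adjusted p of 0.0367 missed the threshold without either P2-treated p53-/- array, either untreated p53-/- array or P2-treated p53+/+ replicate 1, being 0.112 at the highest.

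In the lists below a gene is represented by its brightest tested probe. On that basis 10.8% of 10932 tested genes were called higher and 15.5% lower, with a median change of -0.03, and the lists were chosen with earlier results of these data known. With median scaling the members called higher were 1 in the Wnt, 3 in the ATF4, 2 in the glycolysis and 0 in the ribosomal protein list.

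CDKN1A rose with P2 in both genotypes. It read 11.86 and 11.73 in treated p53-/- cells and 11.98 and 12.01 in treated p53+/+ cells, against 10.06 and 10.07 in untreated p53-/- cells and 9.91 and 10.06 in untreated p53+/+ cells. Treated arrays averaged 11.90 ± 0.13 and untreated arrays 10.02 ± 0.08 (SD, n = 4 each), a 3.66-fold rise (adjusted p = 1.36e-06, other probe 1.47 log2), and the effects of 1.73 in p53-/- and 2.01 in p53+/+ cells did not differ at the threshold (adjusted p = 0.402). GDF15 behaved alike, with 12.01, 11.79, 11.74 and 11.97 on the P2 arrays and 9.46, 9.34, 9.25 and 9.30 on the untreated arrays. MDM2 showed no shared call. It read 4.81 and 4.89 in treated p53-/- cells and 5.33 and 5.31 in treated p53+/+ cells, against 4.80 to 5.05 on the untreated arrays, near the detection limit. Its pooled change was 0.19 (95% interval -0.07 to 0.46, adjusted p = 0.262), with an effect of -0.07 in p53-/- cells and 0.46 in p53+/+ cells (adjusted p = 0.0348 in that contrast). The difference between these effects did not pass (adjusted p = 0.174).

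Of 30 measured p53 target genes, 15 (50%) were called higher and 3 lower, with a median change of 0.30. Arrest and feedback genes (9 of 18 higher, 2 lower) and apoptosis genes (6 of 12 higher, 1 lower) had the same share of rises. TP53INP1, which promotes autophagy and cell death, read 7.77, 7.77, 7.67 and 7.58 with P2 against 6.71, 6.45, 6.40 and 6.36 untreated, with nearly equal effects of 1.19 in p53-/- and 1.24 in p53+/+ cells. PLK2, a polo-like kinase that p53 is known to induce, went the other way, with 5.13, 5.31, 4.75 and 4.85 against 6.68, 6.28, 6.55 and 6.54, a 2.83-fold fall (adjusted p = 6.13e-05). The count of higher members was 12 to 15 when any 1 array was left out and 10 without both untreated p53-/- arrays.

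None of 34 measured mitosis and G2/M genes rose and 10 fell (29.4%), with a median of -0.17. The largest of these falls were those of the kinetochore protein CENPF (-0.64), survivin (BIRC5, -0.57, second probe -0.56), cyclin B1 (CCNB1, -0.52) and the chromosome-bound kinesin KIF4A (-0.44). The number called fell to 4 without both untreated p53-/- arrays. CCNB1 read 9.64, 9.55, 9.31 and 9.41 on the P2 arrays against 10.12, 9.97, 9.86 and 10.03 on the untreated arrays, with no overlap. The G1 kinase gene CDK6 fell by 0.88 and the inhibitor gene CDKN2D by 0.44 on 1 probe, with its other at 0.08. Of 36 DNA replication and E2F target genes, 8 were called higher and 1 lower, but with any of 5 arrays left out at most 5 stayed called higher (3 without either P2-treated p53-/- array, 5 without either untreated p53-/- array, 4 without P2-treated p53+/+ replicate 1), and none did with median scaling.

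Among interferon-stimulated genes 15 of 31 rose and 2 fell. These genes encode antiviral effectors and the sensors and factors that control them, and most carry a response element bound by STAT and IRF factors. The shares were 48.4% higher and 6.45% lower, with a median of 0.33, and 14 of the 15 rises were even. The count lay between 13 and 17 in the fits that left out 1 array or scaled by medians. Effectors (11 of 21 higher) led the list. BST2, tetherin, which holds budding virus at the cell surface, read 6.19, 6.13, 6.25 and 6.31 with P2 against 5.12, 4.76, 4.56 and 4.82 untreated, where 1 of 4 arrays detected it (fitted change 1.41, adjusted p = 5.45e-05). IFIT2, which binds viral RNA, read 6.39, 6.43, 6.40 and 6.44 against 5.63, 5.24, 5.35 and 5.04, a rise of 1.10. Both sets of P2 arrays stood apart from all untreated arrays. IFI6 (0.84, second probe 0.89) and IFI27 (0.81) followed, and ISG20 was among the 2 members that fell (-0.58, adjusted p = 0.00211).

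The element searched in these promoters was GAAA, any 2 bases and GAAA again, on either strand and with overlapping matches allowed, in the 250 bases before the annotated start. It occurred in at least 1 listed promoter of 290 of 9019 tested genes with a promoter in the RefSeq table (3.22%), of 4.52% of genes called higher and of 2.37% of genes called lower. In the list it occurred in 15 of 25 genes (60%), 9 of the 13 called higher among them, and also in ISG20. The windows of the 4 called members with the largest change that hold it are printed here, since the element was found before 60% of the listed genes with a promoter in the table. They come from RefSeq on GRCh38.p14, read 5′ to 3′ on the gene's strand, with the matches in capitals: BST2 at chr19:17405725-17405824 (minus strand), IFI6 at chr1:27672256-27672355 (minus strand), IFI27 at chr14:94110571-94110670 (plus strand) and PARP9 at chr3:122564312-122564411 (minus strand).
BST2: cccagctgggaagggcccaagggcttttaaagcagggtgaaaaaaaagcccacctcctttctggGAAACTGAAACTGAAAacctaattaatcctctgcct
IFI6: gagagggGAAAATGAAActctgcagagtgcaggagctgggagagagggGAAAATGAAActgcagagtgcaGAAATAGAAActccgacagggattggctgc
IFI27: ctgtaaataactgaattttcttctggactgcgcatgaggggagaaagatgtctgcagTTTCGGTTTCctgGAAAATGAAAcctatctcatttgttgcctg
PARP9: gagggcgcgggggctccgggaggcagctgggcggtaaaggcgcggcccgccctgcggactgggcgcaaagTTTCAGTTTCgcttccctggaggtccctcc
IFI6 holds 3 matches and BST2 2 overlapping ones. In IFI27 a forward match follows one on the opposite strand, and the match of PARP9 lies on the opposite strand. A match is a description of these letters and not evidence of a bound site.

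Class I antigen presentation genes, which load peptides for T cells and share regulators with the interferon genes, had 6 of 14 measured members called higher and 1 lower, with a median of 0.25. HLA-E, a non-classical heavy chain, read 8.58, 8.49, 8.33 and 8.65 on the P2 arrays and 7.07, 7.07, 7.38 and 7.22 on the untreated arrays, a rise of 1.33 (adjusted p = 2.90e-05). The light chain gene B2M rose by 0.68 and the peptide transporter gene TAP1 by 0.62. Of 10 leukocyte markers on the array, 7 were detected on no array, CD3D, CD3E and CD79A among them. The mean log2 intensity over the list was 4.79 to 4.88 on P2 arrays against 4.73 to 4.89 on untreated arrays. Of the 2 markers detected on every array, CD68 was called higher (0.46) and LYZ was not called (-0.36, adjusted p = 0.209).

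Sterol genes were called in 1 direction only. Cells make cholesterol through a chain of enzymes under the SREBP factors and export it through ABCA1. Of 24 measured members 9 (37.5%) were called higher and none lower, with a median of 0.23, and 6 of 15 synthesis enzymes were among them. ABCA1, the exporter, averaged 5.86 ± 0.13 with P2 and 4.51 ± 0.05 without it (SD, n = 4 each), where no array detected it, so it was at least 2.06-fold higher. INSIG1, which retains SREBP in the endoplasmic reticulum, read 7.15, 7.01, 6.91 and 7.12 against 6.11, 5.90, 6.06 and 5.89, a rise of 1.06 (adjusted p = 6.37e-05). In neither gene did the treated and untreated arrays overlap. The synthesis enzyme genes SQLE (0.85) and CYP51A1 (0.83) rose alike. Fatty acid genes had 6 of 16 called higher and none lower, led by the desaturase genes SCD (0.69) and FADS1 (0.66), with a median of only 0.05. With median scaling 6 of the sterol and 2 of the fatty acid genes stayed called higher. The sterol regulatory element TCACNCCAC was found before 1 of 21 cholesterol genes, SREBF2, which was not called, and before 1.21% of all tested genes.

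Genes of glucose handling moved in opposite directions. ARRDC4 read 7.73, 7.60, 7.23 and 7.43 on the P2 arrays against 4.91, 4.59, 5.07 and 5.14 on the untreated arrays. SLC2A1 (GLUT1), the other main glucose transporter of these cells, read 9.13, 9.04, 9.49 and 9.47 against 10.73, 10.87, 10.87 and 10.98, a fall of 1.58 (adjusted p = 3.85e-06) beside the 2.26 of SLC2A3. The arrestin thus rose while both transporter genes fell, with all arrays apart. Over the list of glycolysis, glucose uptake and hypoxia genes 11 of 37 (29.7%) fell and 5 rose, and among the 20 glycolysis genes 6 fell and 1 rose. The 5 rises were 3 without either P2-treated p53+/+ array, and 3 members stayed called lower without both untreated p53-/- arrays. The peptide hormone gene ADM, a hypoxia target, rose by 1.05. The E-box CACGTG is the core of the element through which glucose-sensing factors are known to act on ARRDC4. It occurred before 9 of 33 genes of the list (27.3%) and 11.4% of all tested genes, with an equal 11.4% in genes called higher and in genes called lower. The ARRDC4 window (chr15:97960453-97960552, plus strand, RefSeq on GRCh38.p14, E-box in capitals) is shown because ARRDC4 is the largest change of the list.
ARRDC4: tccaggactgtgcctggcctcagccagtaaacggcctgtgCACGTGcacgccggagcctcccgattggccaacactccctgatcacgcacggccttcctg

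Kinases of insulin signalling and their targets were called both ways. SGK1 read 6.56, 7.02, 6.65 and 6.96 with P2 against 8.92, 8.67, 8.81 and 8.88 untreated. FOXO3, a transcription factor that the AGC kinases hold in the cytoplasm, rose by 1.65 (p53-/- 2.45, p53+/+ 0.86), and PIK3R1, the regulatory subunit of PI3K, rose by 0.80 on its brighter probe while its other probe changed by -0.02. KLF6, a zinc finger factor, fell by 0.78. Of 18 measured members of this list 4 rose and 5 fell, with a median of -0.05.

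Ligand-driven pathways were called both ways. In the Wnt list, 10 of 33 (30.3%) fell and 5 rose, with a median of -0.08. The ligand WNT3A read 4.98, 4.74, 5.05 and 5.26 with P2 against 7.23, 6.93, 7.07 and 6.93 untreated. AXIN2, a feedback inhibitor that beta-catenin induces, read 7.81, 7.74, 7.73 and 7.70 against 9.16, 8.88, 8.86 and 8.99, a fall of 1.23 (adjusted p = 1.59e-05) that was 1.24 in p53-/- and 1.21 in p53+/+ cells. Both were lower on every P2 array than on any untreated array. The count of falls was 7 to 10 with 1 array left out, whereas that of rises dropped to 1 without untreated p53-/- replicate 2 or untreated p53+/+ replicate 2, to 2 without P2-treated p53+/+ replicate 1 and to 3 without P2-treated p53-/- replicate 2, P2-treated p53+/+ replicate 2 or untreated p53+/+ replicate 1. The TCF site ATCAAAG occurred before 1 of 20 genes of the list, SP5, and before 1.96% of all tested genes.

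JAG1, a Notch ligand that beta-catenin also induces, fell by 1.09. In the Notch list 5 of 19 members fell and 2 rose, with 3 of the falls among 7 ligands and receptors, where DNER, JAG1 and the receptor gene NOTCH3 (-0.55) were the ones called. The target gene HES2 fell by 0.47. In the ERBB list 4 of 11 members rose and 3 fell (2 rose with median scaling). Among its 5 ligand genes NRG1 and HBEGF (-0.66) were called lower, and BTC and EREG higher. BTC averaged 5.20 with P2 and 4.65 on the untreated arrays, none of which detected it. EREG rose by 0.35 but unevenly (p53-/- 0.14, p53+/+ 0.57), and the receptor gene ERBB3 rose by 0.37. LRIG1, which promotes degradation of ERBB receptors, read 6.83, 6.99, 6.63 and 6.85 with P2 against 5.53, 4.92, 5.10 and 4.92 untreated, a rise of 1.71 (adjusted p = 3.25e-05). EGFR fell by 0.82 on its brighter probe but changed by 0.63 on its other, so no direction is given for it. FGF9 led the falls of the FGF list, and the receptor gene FGFR4 rose by 0.61 with its other probe at 0.46. The receptor gene FGFR3 fell by 0.47 on 1 probe and changed by -0.03 on the other.

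Genes induced by ERK, the kinase at the end of the RAS cascade, had 9 of 32 members called lower and 3 higher, with a median of -0.17. The largest change of the list was the rise of DUSP4 (1.96), whose probe was low on untreated p53-/- replicate 1. KLF4 fell by 1.00, KLF6 by 0.78 and DUSP6, the phosphatase that restrains ERK, by 0.79 (p53-/- -0.45, p53+/+ -1.12, second probe -0.81). DUSP6 read 9.76 and 9.49 in treated p53-/- cells and 8.92 and 8.83 in treated p53+/+ cells, against 9.95, 10.20, 9.95 and 10.05 untreated. The count of 9 falls was 5 with cyclic loess, 4 without P2-treated p53+/+ replicate 1 and 5 without P2-treated p53-/- replicate 1 or untreated p53-/- replicate 2. The AP-1 site TGANTCA was found in none of the 23 promoters of the list and in 6.30% of all tested genes.

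Of the BMP and TGF-beta genes 4 of 29 were called higher (13.8%) and 6 lower (20.7%). These shares were not far from the 10.8% and 15.5% over all tested genes. BMP4 read 8.93, 8.95, 8.83 and 8.70 on the P2 arrays against 10.80, 10.74, 10.81 and 10.70 on the untreated arrays, and the pseudoreceptor gene BAMBI fell by 0.94. CCN2, a matrix protein that both TGF-beta and YAP induce, read 6.58, 6.49, 6.28 and 6.43 against 8.16, 8.16, 8.16 and 8.24, a fall of 1.74 (adjusted p = 1.43e-06). All 4 P2 arrays were far below the untreated ones in both BMP4 and CCN2. Among YAP and TEAD targets 5 of 20 fell (25%), CCN1 by 0.67 and PTPN14 by 0.57 among them, and 2 rose (10%).

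Epithelial genes had 11 of 29 measured members called higher and 1 lower, with a median of 0.22. Carbonic anhydrase 2 (CA2), an enzyme of colon surface cells, read 10.20, 10.12, 9.94 and 9.97 with P2 against 8.80, 8.85, 8.92 and 8.87 untreated, a rise of 1.20 (adjusted p = 1.58e-05), and the tight junction gene CLDN3 rose by 1.07. Both were separated on all arrays. Of the 12 called members only 5 were even, and the desmosome genes PKP3 (1.17) and DSG2 (1.05) were called but had effects of 1.99 and 1.64 in p53-/- cells against 0.36 and 0.46 in p53+/+ cells. Leaving out either P2 array of the p53-/- cells, or untreated p53+/+ replicate 2, ended both calls, and so did untreated p53-/- replicate 2 for PKP3 and P2-treated p53+/+ replicate 1 for DSG2, with adjusted p up to 0.0851 for PKP3 and 0.114 for DSG2. Without untreated p53-/- replicate 1 the change of DSG2 was 0.63. The count of 11 was 6 without untreated p53+/+ replicate 2 and 7 without P2-treated p53+/+ replicate 1 or either P2-treated p53-/- array. In the list of ETS, KLF and epithelial transcription factors more members fell than rose, 7 of 19 (36.8%) against 4 (21.1%). EHF and ELF3 (1.25), another ETS factor of epithelia, were among the rises, and ETS2 (-0.61) among the falls.

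Stem and progenitor markers gave no common direction, with 4 of 17 higher and 6 lower. PROM1 and LRIG1 rose, whereas the surface glycoprotein gene CD24 read 8.79, 8.77, 8.85 and 8.74 on the P2 arrays and 10.15, 9.93, 10.09 and 9.95 on the untreated arrays, a fall of 1.24 (adjusted p = 1.14e-05). Mesenchymal genes also divided. The intermediate filament gene VIM fell by 1.35 and read 5.08, 5.20, 5.45 and 5.38 with P2 against 6.69, 6.62, 6.38 and 6.82 untreated. The protease gene PLAU rose by 1.29, TWIST1, a transcription factor of mesenchymal transition, by 1.11 and the matrix protease gene MMP7 by 0.83. Vimentin and TWIST1 thus moved apart, each with no overlap between sides.

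ACTA2, the smooth muscle actin, read 8.64, 8.71, 9.05 and 8.87 on the P2 arrays and 6.97, 6.85, 6.86 and 6.92 on the untreated arrays (change 1.92, adjusted p = 1.54e-06). The matrix gene THBS1 fell by 1.32. Neurite guidance and adhesion genes fell more often than not among those called, 9 of 26 (34.6%) against 2 that rose, with a median of -0.23. Besides NAV3 and NECTIN3, the repellent ligand gene SEMA3A fell by 1.14, with equal effects of -1.14 in both genotypes, and DPYSL3 was the main exception. DPYSL3 read 8.67, 8.90, 8.65 and 8.63 with P2 against 6.34, 6.28, 6.03 and 6.20 untreated. In the S100 and annexin list 4 of 14 members rose and 4 fell. S100A4, S100A13 (0.55), ANXA2 (0.46) and S100A6 (0.34) rose, and ANXA10 (-1.22), ANXA1 (-0.74), S100A10 (-0.69) and S100A11 (-0.33) fell. Uneven among them were S100A13 (p53-/- 0.78, p53+/+ 0.33) and S100A11 (p53-/- -0.49, p53+/+ -0.18). The rises were 2 without P2-treated p53-/- replicate 2 and 2 with median scaling.

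**Figure D3:**
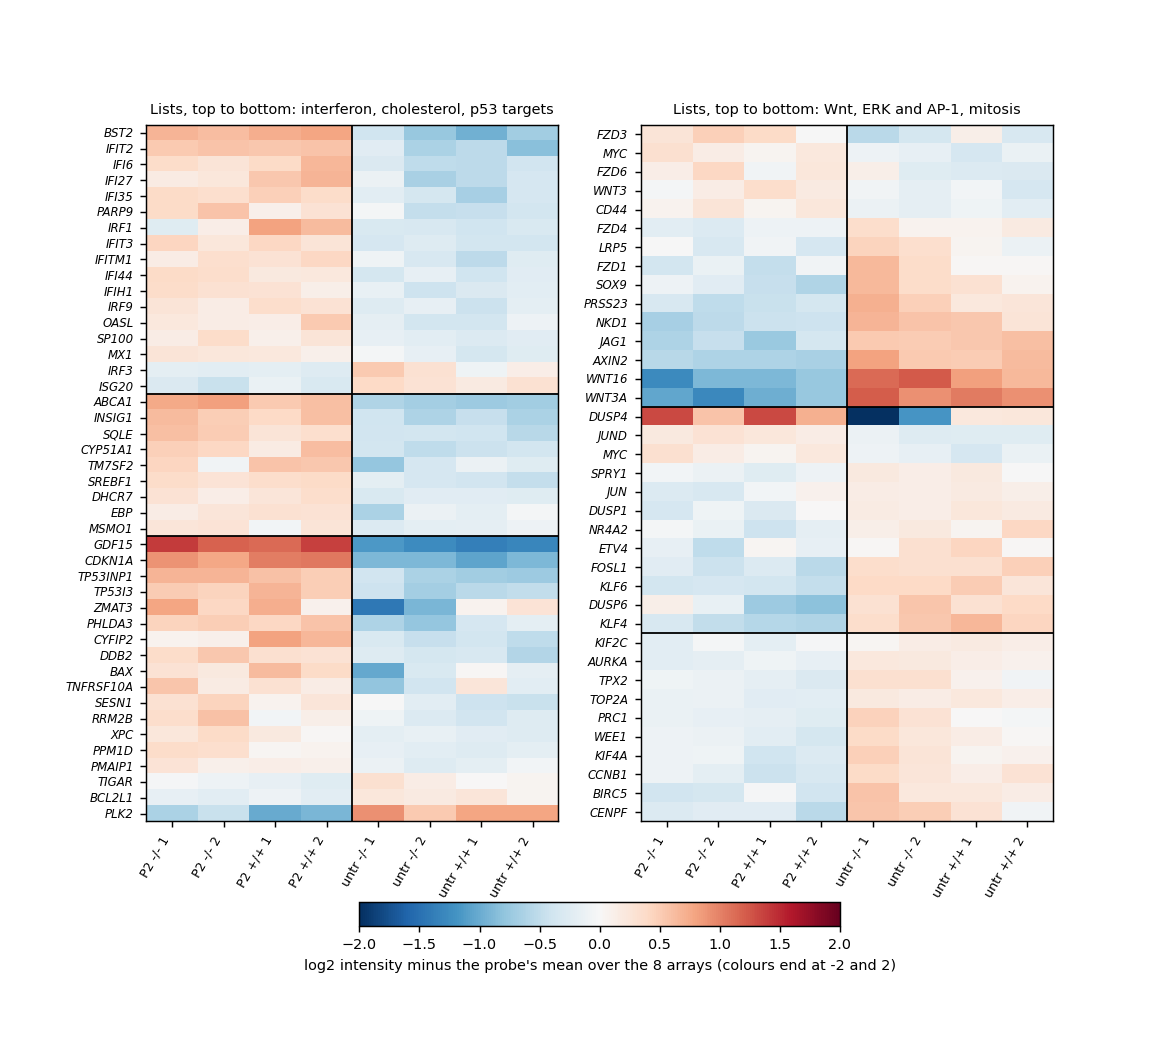
Called members of 6 lists on each array, as log2 intensity minus the probe's mean over the 8 arrays, with the 4 P2 arrays left of the 4 untreated arrays. Most interferon, cholesterol and p53 target genes are redder on the P2 arrays, and most Wnt, ERK and mitosis genes bluer, while ZMAT3 and DUSP4 are marked mainly by low untreated p53-/- arrays.

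Stress programmes did not move as blocks. In the ATF4 list, the targets of the integrated stress response, 6 of 28 rose and 3 fell, with a median of 0.03. DDIT4, an inhibitor of the growth kinase mTORC1, read 10.70, 10.51, 10.79 and 10.77 on the P2 arrays and 9.26, 9.28, 9.28 and 9.55 on the untreated arrays, a rise of 1.35 (adjusted p = 9.53e-06). DDIT3, the factor CHOP that prolonged stress induces, fell by 0.91, with 7.14, 7.38, 7.32 and 7.54 against 8.14, 8.33, 8.18 and 8.36. These well known stress genes lay apart from the untreated arrays in opposite directions. The serine synthesis gene PHGDH rose by 0.59. None of 19 aminoacyl-tRNA synthetase genes was called. No endoplasmic reticulum folding gene rose, and 6 of 19 were called lower, the chaperone gene HSPA5 by 0.58 and MANF by 0.47 the most, although 2 stayed called without either P2-treated p53-/- array or without replicate 1 of the untreated cells of either genotype, and 3 without P2-treated p53+/+ replicate 1 or untreated p53+/+ replicate 2. HSF1, the heat shock factor, rose by 1.29, while the chaperone gene HSPA1B fell by 0.46. Of 25 NRF2 and antioxidant genes 3 rose (12%) and 2 fell (8%), near or below the shares over all tested genes. AKR1C3 (0.89), TKT (0.59) and TXNRD1 (-0.40, other probe -0.23) were among them.

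Cell death genes had 9 of 31 members higher and 3 lower, with a median of 0.13. CASP4 and TNFRSF6B had the largest changes. BAX, the pore-forming death effector, rose by 0.75 (other probes 0.11 to 0.60) and HRK, an activator of that pathway, by 0.62, reading 6.47, 6.54, 6.79 and 6.94 with P2 against 6.19, 5.84, 6.07 and 6.13 untreated. With median scaling 5 members stayed called higher, and 4 did without both untreated p53-/- arrays. Of 11 NF-kB subunits and inhibitors none rose and 2 fell. Over the whole NF-kB list 2 of 16 members (12.5%), LCN2 the larger, rose and 3 (18.8%) fell. Over all tested genes the shares were 10.8% and 15.5%. In the autophagy and lysosome list 3 of 30 members rose (10%) and 3 fell (10%), below those shares, with a median of 0.03. The lysosomal protease gene CTSH rose by 1.37 on its brighter probe and by 0.39 on its other, and MAP1LC3B, which coats autophagosomes, fell by 0.54.

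Regulators of transcription included NRIP1 among the nuclear receptor genes, where DHRS3, a retinal reductase that retinoic acid induces, rose by 1.18 and the coactivator gene NCOA1 fell by 0.49. Over that list 3 of 25 rose (12%) and 4 fell (16%), near the 10.8% and 15.5% over all tested genes. HDAC2, a histone deacetylase, read 11.72, 11.76, 11.54 and 11.57 on the P2 arrays against 10.20, 10.33, 10.18 and 10.28 on the untreated arrays, a rise of 1.40 (adjusted p = 3.84e-06), while HDAC5 (-0.76), the DNA methyltransferase gene DNMT3B (-0.69) and HDAC9 (-0.55) fell on 1 probe each, with their second probes at 0.06, 0.03 and 0.04. NOLC1, a nucleolar phosphoprotein, rose by 1.25, and ERCC1, a nuclease subunit of excision repair, rose by 1.20, with its other probes between 0.89 and 1.28. In the cap-binding list EIF4E3 was the only one of 16 genes called higher, and 3 others were called lower by at most 0.30, each of them losing its call in at least 2 of the fits that left out 1 array. The transferrin receptor gene TFRC, an iron-handling gene and common reference, fell by 0.68.

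**Figure D4:**
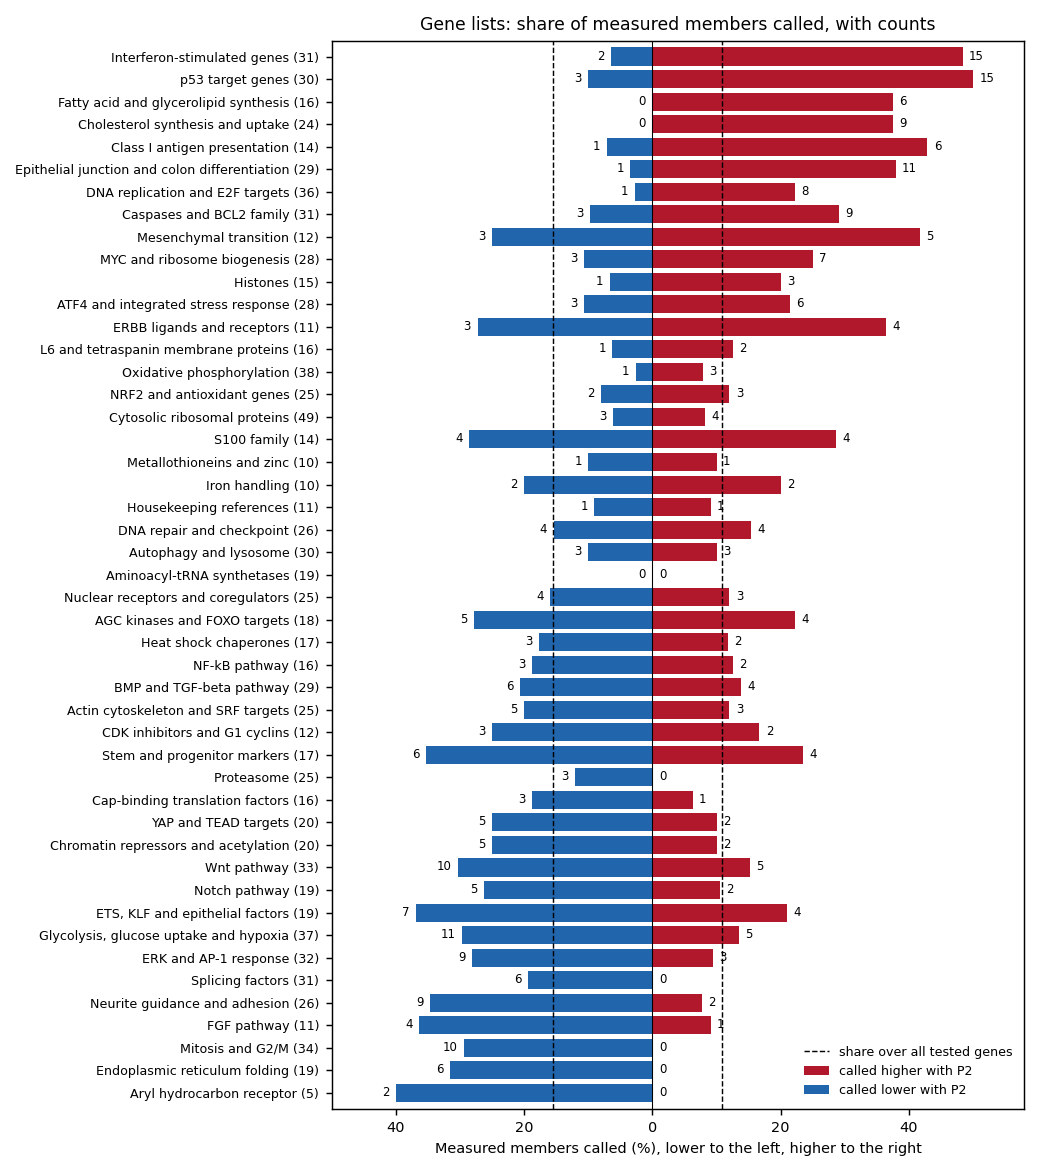
Share of each list's measured members (number in brackets) called higher with P2 (red, to the right) and lower (blue, to the left), with the counts beside the bars and the shares over all tested genes, 10.8% higher and 15.5% lower, as dashed lines. Interferon-stimulated genes reach 48.4% higher, and the aminoacyl-tRNA synthetases have no call.

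Several large housekeeping groups stayed at or below the background of 26.3% of genes called either way. Of 38 oxidative phosphorylation genes 3 rose and 1 fell, of 49 cytosolic ribosomal protein genes 4 rose and 3 fell, and of 25 proteasome genes 3 fell and none rose. The 4 ribosomal rises were 1 without P2-treated p53-/- replicate 2, and 2 without P2-treated p53-/- replicate 1, P2-treated p53+/+ replicate 2, either untreated p53-/- array or untreated p53+/+ replicate 1. Of 31 splicing factors none rose and 6 fell, with a median of -0.15, and 3 stayed called without P2-treated p53-/- replicate 1 or untreated p53+/+ replicate 1. The kinase gene CLK4 led them with -0.57, while the second probes of HNRNPM (1.09) and HNRNPU (0.33) moved against the first (-0.38 and -0.37). Such shares are no result about these groups.

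Called genes also differed in features that the fit did not use. The median length of the annotated gene on the current human assembly was 20.9 kb for genes called higher and 42.3 kb for genes called lower, against 28.8 kb for all tested genes. Among even changes over 2-fold it was 23.7 kb for 102 higher genes and 38.6 kb for 77 lower genes. By mean level, the dimmest 25% of probes had 7.85% called higher and 8.29% lower, the lowest shares of the 4 equal bins of level. Where a called gene had further tested probes, 453 of 580 (78.1%) moved the same way for higher genes, with 166 called the same way and 11 the opposite way. For lower genes 348 of 523 (66.5%) moved the same way, with 115 called the same way and 16 the opposite way. These are descriptions over genes, which are not independent samples, and carry no test.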

How the data were processed

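Cells were HCT116 lines, and total RNA was hybridised to Illumina bead arrays, although the labels' extraction text speaks of frozen tissue. The deposited table of non-normalized values gives 1 raw intensity and 1 detection p-value per probe and array, exported with GenomeStudio per the submitters' processing notes. The authors' log2 values in the deposited matrix equal quantile-normalized log2 intensity (largest difference 5e-09) and served as an alternative. Background was corrected here by normexp from the detection p-values (offset 16), followed by log2 and quantile normalization. limma (version 3.58.1, R version 4.3.3) fitted genotype plus treatment (5 residual and 4.36 prior degrees of freedom), two-sided, with Benjamini-Hochberg adjustment over 14574 probes and a threshold of 0.05. A second fit with 1 mean per group gave the effect in each genotype and their difference. Adjusted p-values in the text are from these fits. The number of arrays limits the precision. Of 24526 probes, 21834 had 1 gene symbol in the platform annotation and 2692 none.

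The text names the 15 largest even rises and falls with no overlap between sides, the 5 largest uneven changes each way, up to 6 detection switches each way, up to 4 called members of each of 52 lists with at least 3 calls, CDKN1A, MDM2 and GDF15, with their other probes. Listed members whose call was lost when 1 array was left out are mostly given only as counts. ISG20, BTC, EREG, ERBB3, ANXA2, S100A6, S100A11, S100A13 and the marker genes without a level were named after their values were seen. The members and lists were chosen with earlier results of these data known. Tested on simulated data of this comparison (14574 probes), the fit recovered 73.13% of changes of 0.5 log2 and 100% of changes of 1 and of 2 log2. The simulation changed 66 or 67 probes of each size, equally in both genotypes and with independent noise. The real data had more calls and less even effects, so these rates may not carry over. Motifs were searched with Python (version 3.11.15) in RefSeq promoters of GRCh38.p14. Alternatives were an offset of 50, cyclic loess, median scaling, uncorrected background, other probe filters, array weights, other model terms, a 1.5-fold minimum and leaving out each array.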

Additional observations from a re-analysis of the deposited data

Results flagged for a closer look

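In groups of 4 arrays of one treatment, 25 of 380 sets of values had 1 array far from the other 3 for its group's range, and chance flags about 1 in 20 such groups. All values are log2 intensities unless stated, and none of these gaps was given a cause.

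Among P2 arrays, p53-/- replicate 2 stood apart for DPYSL3 (8.90, the others 8.63 to 8.67), TM4SF18 (4.89, the others 4.73 to 4.74) and GRN (9.33, the others 9.79 to 9.88). Replicate 1 of the P2-treated p53-/- cells did so for TIPARP (8.08, the others 7.92 to 7.94). P2-treated p53+/+ replicate 1 was high for BIRC5 (9.66, the others 9.30 to 9.34). P2-treated p53+/+ replicate 2 was low for SNAP25 (4.45, the others 4.56 to 4.57), GINS4 (6.47, the others 6.85 to 6.88) and CENPF (8.82, the others 9.08 to 9.13) and high for TSPAN1 (6.62, the others 6.18 to 6.25). That array also had the fewest detected probes of the P2 side, 13423 against 13913 to 13998.

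Among untreated arrays, p53+/+ replicate 2 was high for SLC2A3 (9.01, the others 8.89 to 8.90), MSX2 (6.44, the others 5.86 to 5.88), CCN2 (8.24, the others 8.16 to 8.16), BAMBI (9.01, the others 8.72 to 8.75), DDIT4 (9.55, the others 9.26 to 9.28) and RPL23 (11.80, the others 11.21 to 11.29), and low for SQLE (9.62, the others 9.79 to 9.82). Untreated p53+/+ replicate 1 was low for CDKN1A (9.91, the others 10.06 to 10.07), FADS1 (8.13, the others 8.30 to 8.31), PHGDH (10.59, the others 10.78 to 10.79) and TSPAN1 (5.73, the others 5.93 to 5.94). Untreated p53-/- replicate 1 was high for BIRC5 (10.26, the others 9.84 to 9.89) and EPCAM (7.65, the others 7.39 to 7.40) and low for B2M (10.69, the others 10.92 to 10.96) and UBTF (6.44, the others 6.87 to 6.89).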

How the results depend on the processing

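No named gene reversed its direction while called, but the balance of calls did: cyclic loess gave 1884 higher and 1744 lower, with 2575 probes moving up and 2428 down in both genotypes, against 2141 up and 2910 down as reported. With median scaling 867 probes were called higher and 1043 moved up in both genotypes. The filter that asked all 8 arrays to detect a probe at p under 0.01 tested 9198 probes instead of 14574. With it, 1387 moved up in both genotypes. A minimum change of 1.5-fold left 195 probes, 108 higher and 87 lower. The difference between genotypes, with 0 probes as reported, gave 73 without background correction and with the authors' log2 values, 466 with median scaling and 87 with the stricter detection filter. Leaving out 1 array in turn gave 2569 to 3347 called probes, 1083 to 1574 higher, 1486 to 1823 lower, and 0 to 973 for the difference between genotypes, 973 without untreated p53-/- replicate 2 and 80 without P2-treated p53+/+ replicate 1. The causes were not tested. Without both untreated p53-/- arrays, an alternative chosen after seeing the data, 2278 probes were called, 1121 higher and 1157 lower, 1861 of them shared with the 3815. Without the 215 probes low on untreated p53-/- replicate 1, also chosen after seeing the data, 3912 were called, 1722 higher and 2190 lower. Replicate numbers are shared across groups, and deviations of same-numbered arrays correlated at -0.186 to 0.196. Each group gives only 1 such deviation per probe, so these values cannot show whether the numbers pair the samples. The main fit did not pair them, and the replicate block gave 3376 calls, 1459 higher and 1917 lower. Of 188 called probes named by the rule, 149 kept their call without each single array and 69 with the 1.5-fold minimum. In every setting but that minimum, leaving aside those chosen after seeing the data, 140 kept it. Without both untreated p53-/- arrays 47 lost it. Signal near background limits dim probes: bounds or the means of both sides were given where no array of a side detected the probe, and fitted changes where only some did.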
